A study of Homo sapiens with 3 samples.

Results

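In CWR22Rv1 prostate carcinoma cells that expressed MEIS1 from a lentiviral vector, 1070 promoter peaks of MEIS1 were found that had no overlapping peak once HOXB13 had been knocked out. They are called HOXB13-dependent promoter peaks here, a name that stands for the overlap and for nothing measured beyond it. Members were selected on measured values: a peak of the LV-MEIS1 list was kept when HOMER had annotated it to a promoter outside repeats and when no peak of the HOXB13ko-LV-MEIS1 list overlapped it by 1 bp or more. The LV-MEIS1 list held 5968 peaks in all, so the members made up 17.9% of it. Of its 1203 promoter peaks, 88.9% had no overlapping peak in the other list (95% Wilson interval 87.0% to 90.6%), and of all its peaks 92.3% had none. The share at promoters is therefore close to that of the whole list, and nothing is read from it.

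CWR22Rv1 is an established human line from a xenograft that relapsed after castration. LV-MEIS1 cells kept their own HOXB13, while HOXB13ko-LV-MEIS1 cells came from a recombined pool of CRISPR knockout clones with constitutive Cas9, which then received the same vector. Both were grown in medium with puromycin and fixed 48 h after seeding, and MEIS1 was then immunoprecipitated, in 3 samples of LV-MEIS1 and 2 of HOXB13ko-LV-MEIS1. These samples were pooled by line before peak calling, against 1 input, so each line has a single list and no replicate error. The pools held 202428594 and 105763683 tags after filtering, a ratio of 1.91, and the input 39102495. A missing peak therefore means that the position did not pass the threshold in the smaller pool, and a lower depth and a lower occupancy cannot be told apart. Peak calling scaled both pools to the input, by factors of 0.193 for LV-MEIS1 and 0.370 for HOXB13ko-LV-MEIS1. This puts pileups in the same units but adds no reads to the smaller pool. The labels give the input as untreated cells and both lists give it the same tag count, while the methods of the study speak of input specific to the line, so whether the input carried either change is not settled. The absence of HOXB13 could not be checked in these data.

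MEIS1 is a homeodomain protein of the TALE class, whose members MEIS, PKNOX, PBX and TGIF bind DNA with HOX proteins as partners. MEIS and PKNOX proteins read the core TGACA, PBX proteins the core TGAT, and a PBX protein beside MEIS or PKNOX reads the joined word TGATTGACA. HOXB13, a posterior HOX protein that marks the prostate lineage, reads words with the core ATAAA, and PBX with a HOX partner reads TGATTTAT. Promoters commonly hold other words near the start site, among them CCAAT, the word of NF-Y, and GGGCGG, the word of SP and KLF factors.

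The sequences below come from hg38 and show the words on which the results turn, each within 50 bp of the summit of a HOXB13-dependent promoter peak and written 5′ to 3′ on the strand that holds the word. Capitals mark the word. The first set shows TGACAG at promoter peaks with high fold enrichment, the ratio of the pileup at the summit to the local background.
ZNF736 (chr7:64313808-64313836, minus strand): atgaggcaagggTGACAGgtttttgcctg
CDH15 (chr16:89171601-89171629, minus strand): gctaaggctgagTGACAGcgtgttggcag
UGT2B28 (chr4:69280275-69280303, plus strand): tcttaggtggaTGACAGcgaatataaaca
ZNF563 (chr19:12333776-12333804, plus strand): tgggcactgagTGACAGaagaagcgatca
ZNF92 (chr7:65373677-65373705, minus strand): ctgaaggaagagTGACAGcctaagctgca
JARID2 (chr6:15245413-15245441, plus strand): ggggagttgagTGACAGgctttgcggggc

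The second set shows the joined PBX and MEIS word TGATTGACA, with the promoter of MEIS1 itself.
LCORL (chr4:18021850-18021878, plus strand): ggaggggggtTGATTGACAcgtgtcacta
PPP1R15A (chr19:48872206-48872234, plus strand): gccacgcattTGATTGACAgttcgtttgt
ZNF443 (chr19:12441091-12441119, plus strand): gggcagtgccTGATTGACAgttcccacga
MEIS1 (chr2:66435461-66435489, plus strand): acctcgcctgTGATTGACAgctggagtgg

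The third set shows the words with a HOX part, TGATTTAT at 4 promoters and, at MIR8074, the only promoter peak in which TGACA was followed by TTTAT after 2 bases.
UGT2B4 (chr4:69495921-69495949, minus strand): aacttcttgacTGATTTATactggatgtc
TGIF1 (chr18:3451478-3451506, plus strand): gtttctgtcgTGATTTATgtggagtggtt
GRHL3 (chr1:24319435-24319463, minus strand): gggaaagtgttTGATTTATgttgaggttt
PATL1 (chr11:59669543-59669571, plus strand): gtcagggctgTGATTTATgtggctcaaag
MIR8074 (chr19:51207908-51207936, minus strand): agaagacacTGACAtgTTTATtgacttgg

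Summits of the HOXB13-dependent promoter peaks lay close to the transcription start site and mostly upstream, which the promoter annotation of the rule in part fixes. The median position of the summit relative to the start site was -71.5 bp, negative meaning upstream, 73.6% of summits were upstream, and 582 of the 1070 lay within 100 bp. Retained promoter peaks, those that did overlap a HOXB13ko-LV-MEIS1 peak, had 71.4% of summits upstream, and promoter peaks found only in HOXB13ko-LV-MEIS1 cells 71.1%. In GENCODE release 44, 587 summits lay outside the assigned gene, 208 in a UTR exon, 181 in an intron and 9 in a coding exon. Protein-coding genes accounted for 957 of the peaks and non-coding RNA genes for 85. The peaks carried 1037 gene names, and 27 genes had more than 1 of them. Chromosome 1 held the most, with 132 peaks, followed by chromosome 19 with 111, and 13 peaks lay on contigs outside chromosomes 1 to 22, X and Y.

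Fold enrichment of the HOXB13-dependent promoter peaks ranged from 2.58 to 16.3, with a median of 5.92. Their median lay at percentile 44.3 of the LV-MEIS1 list and that of the 133 retained promoter peaks at percentile 57.1. Among the 100 LV-MEIS1 peaks of greatest fold enrichment, 4 were members and 9 were retained promoter peaks. Median width was 264 bp for the members and 335 bp for the retained promoter peaks. The members were thus mostly of ordinary height for this list, and these values, which the rule depends on, are given without a test.

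The highest fold enrichment, 16.3, was at ICE1, which encodes a subunit of the little elongation complex of small nuclear RNA genes, with a summit at -325 bp from the start site and a q-value of 1.71e-55. ZNF736, a zinc finger gene, followed with 14.8, the muscle myosin light chain gene MYLPF with 14.5, and the cadherin gene CDH15 with 14.4. The proteasome subunit gene PSMD8 had 13.5. UGT2B28, whose enzyme conjugates steroids with glucuronic acid, had 12.9. ZNF563, PIH1D1 and ZNF92 had values between 12.7 and 12.9. Among the 10 highest, TGACA stood at the summit of 6 and 3 were at zinc finger genes. At the other end stood TOR3A, C12orf49, YPEL5, HOXA4 and CHPF, with fold enrichments from 2.58 to 2.98, of which CHPF alone had TGACA at its summit.

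The edge of the rule was thinly populated. The nearest HOXB13ko-LV-MEIS1 peak was within 100 bp for 6 of the HOXB13-dependent promoter peaks, within 500 bp for 21 and within 10000 bp for 70, and the median gap was 315861 bp. Just inside the limit, the peak at CHP1 (fold enrichment 5.95) lay 4 bp from a HOXB13ko-LV-MEIS1 peak of 8.42, that at RNU1-2 (5.60) 48 bp from one of 15.6, and that at ANKRD54 (5.62) 53 bp from one of 5.67. Just outside it, the peaks at RNVU1-18 (5.70), ILF2 (3.92) and MIR5087 (10.6) overlapped a HOXB13ko-LV-MEIS1 peak by 6, 42 and 46 bp. Of the 1037 gene names, 68 had a HOXB13ko-LV-MEIS1 peak somewhere else and 10 of these at another promoter position, while 183 had a further LV-MEIS1 peak.

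The MEIS core stood at the summit of most HOXB13-dependent promoter peaks. TGACA, searched on both strands within 50 bp of the summit, was in 595 of 1070 peaks (55.6%, 95% Wilson interval 52.6% to 58.6%), and in 15.2% and 16.1% of windows of the same width centred 500 bp to either side. Compared with the flank that gave the larger p, 502 peaks had the word at the summit only and 79 in the flank only (adjusted p = 3.33e-75, two-sided exact binomial test, Benjamini-Hochberg over 22 words). All LV-MEIS1 peaks held it in 56.1%. In 22198 RefSeq promoters of protein-coding genes, read within 50 bp of a point 72 bp upstream of the start site, the share was 13.7%. The nearest TGACA lay at a median of 10 bp from the summit, and the share of peaks with the word in the central 20 bp bin was 28.4%, against 1.78% to 3.74% in bins 300 bp or more away.

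**Figure D1:**
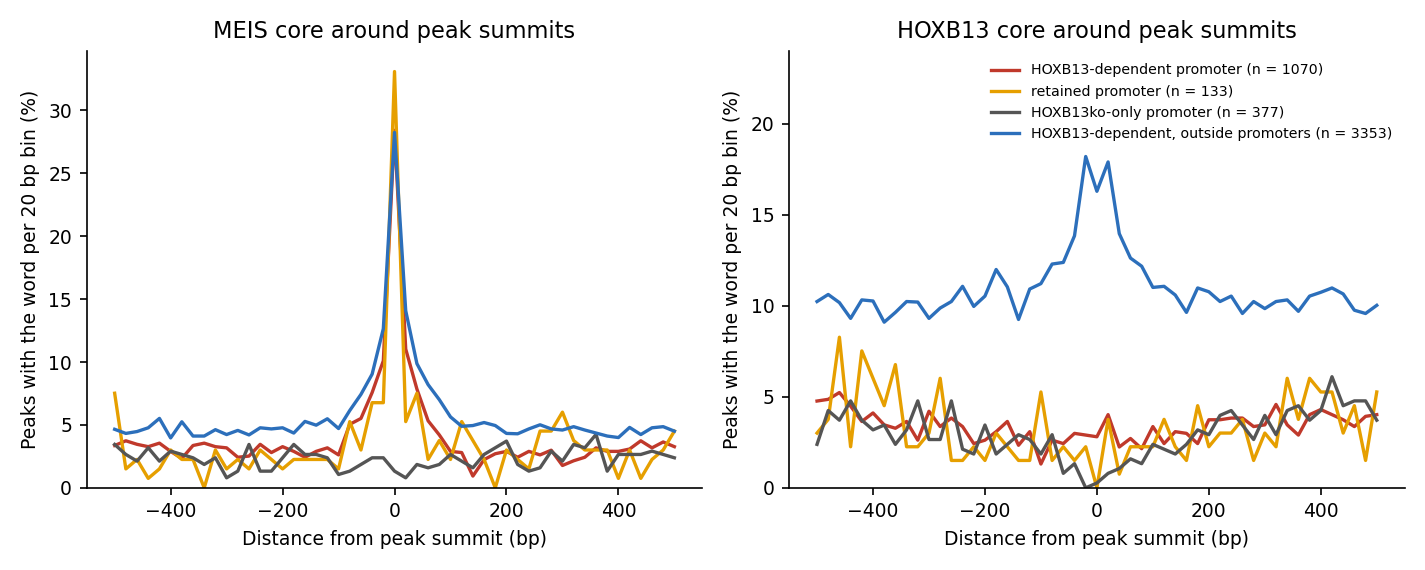
Share of peaks (%) with the MEIS core TGACA (left) or the HOXB13 core ATAAA (right), on either strand, in each 20 bp bin of distance from the summit (bp); each line is 1 class of peaks. The MEIS core reaches 28.4% in the central bin of the HOXB13-dependent promoter peaks and is flat in the HOXB13ko-only promoter peaks, and the HOXB13 core, at 2.80% in that bin, shows no rise at promoters, beside 16.3% in the peaks outside promoters and repeats.

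The core was far commoner in the HOXB13-dependent promoter peaks than in promoter peaks found only without HOXB13, while the differences from the other classes did not pass the test in this window. Of the 377 promoter peaks of HOXB13ko-LV-MEIS1 cells that overlapped no LV-MEIS1 peak, 7.69% held TGACA near the summit, beside 12.6% of their flanks (odds ratio against the members 15.0, 95% interval 10.0 to 23.2, adjusted p = 9.77e-67 by a two-sided Fisher's exact test over peaks, Benjamini-Hochberg over 39 comparisons). Retained promoter peaks had it in 51.9%, a difference of 3.73 percentage points from the members that did not pass the test (odds ratio 1.16, 0.796 to 1.69, adjusted p = 0.560, Fisher's exact test). The 3353 HOXB13-dependent peaks outside promoters and repeats had it in 57.5% (odds ratio 0.925, 0.803 to 1.07, adjusted p = 0.353, Fisher's exact test). This last difference depends on the setting: it was -5.76 points and passed the test with a window of 100 bp (p = 4.17e-04, Fisher's exact test), and -4.35 points without zinc finger genes (p = 0.0161, Fisher's exact test). All such tests treat peaks as units within pooled lists and carry no information on how cultures vary.

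The base after the core was mostly G. Among the 595 HOXB13-dependent promoter peaks with TGACA, the copy nearest to the summit was followed by G in 66.9%, by A in 12.9%, by C in 11.3% and by T in 8.91%. In retained promoter peaks G followed in 56.5% (odds ratio 1.55, 95% interval 0.902 to 2.65; Fisher's exact test, p = 0.107) and TGACAG was in 30.8% of them (adjusted p = 0.127, Fisher's exact test), neither of which passed the test. Outside promoters G followed in 45.2% of HOXB13-dependent peaks with the core (odds ratio 2.45, 95% interval 2.01 to 2.99; Fisher's exact test, two-sided, p = 1.38e-20). The longer word TGACAG was therefore in 38.8% of the promoter peaks, 5.70% of their flanks, 5.13% of all promoters and 28.7% of the HOXB13-dependent peaks outside promoters (adjusted p = 2.86e-09, Fisher's exact test). Compared within 7 strata of GC content at the summit, the difference in TGACAG between these classes was 0.359 percentage points (adjusted p = 0.890, two-sided exact conditional test over strata, Benjamini-Hochberg over 14 comparisons). Against the HOXB13ko-only promoter peaks it was 35.2 points (adjusted p = 2.18e-44, the same exact test). The core pointed along the assigned gene in 279 promoter peaks and against it in 296 (p = 0.505, two-sided exact binomial test).

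Promoter peaks with higher fold enrichment held the core more often. Ranked by fold enrichment, the highest 268 peaks held TGACA in 66.8% and the lowest 267 in 45.7% (odds ratio 2.39, 95% interval 1.66 to 3.45; Fisher's exact test, two-sided, p = 9.91e-07). TGACAG was in 54.5% and 27.3%. The difference in TGACA, 21.1 points, was smaller but still passed the test under 2 other settings. It was 14.7 points without zinc finger genes (p = 0.00115, Fisher's exact test) and 14.4 points with a fold enrichment of at least 5 (p = 0.00368, Fisher's exact test). Distance to the start site made no detectable difference: 54.8% of summits within 100 bp and 56.6% of those farther away had TGACA (odds ratio 0.932, 0.726 to 1.20, p = 0.579, Fisher's exact test). Even in the lowest group the share stood well above the 15.7% of the flanks.

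**Figure D2:**
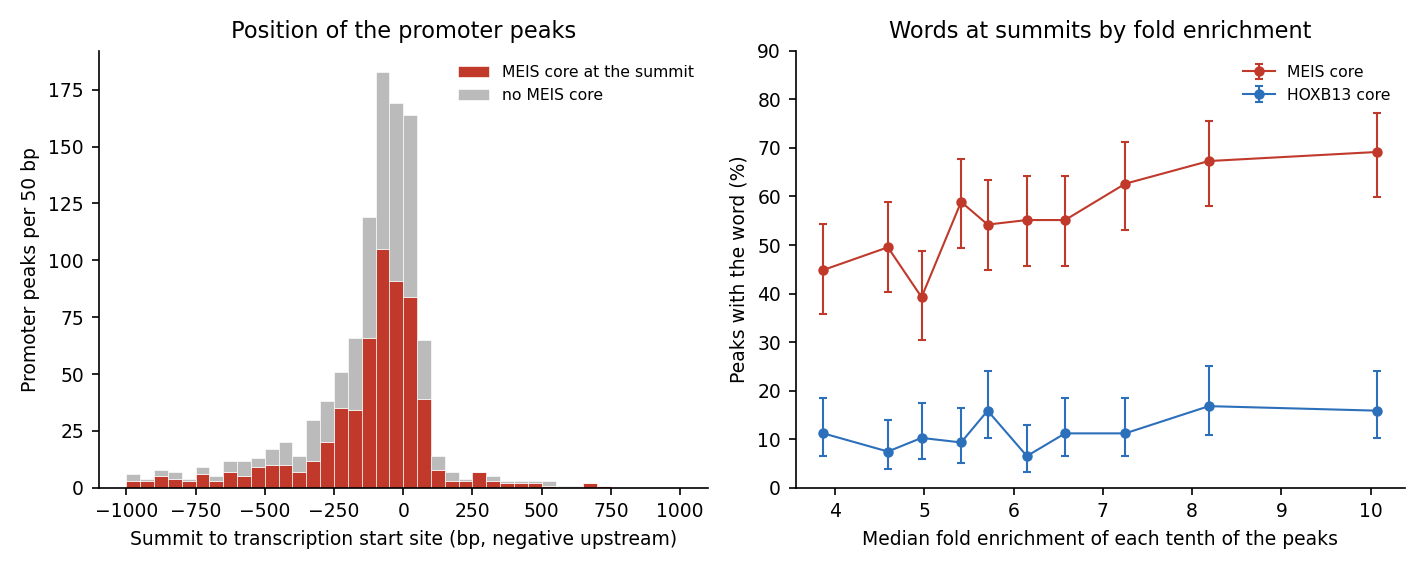
Left, HOXB13-dependent promoter peaks per 50 bp of distance from summit to transcription start site (bp), stacked by presence (red) or absence (grey) of the MEIS core within 50 bp of the summit. Right, share of these peaks (%) with the MEIS core or the HOXB13 core against the median fold enrichment of 10 groups of 107 peaks ranked by it, with 95% Wilson intervals. Peaks gather within 100 bp of the start site, and the MEIS core is commoner toward the highest groups.

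Read promoter by promoter, in the window centred at the median summit position of the members, the word and the peak went together. This is a second view of the same peaks and not separate support. Of the 22198 RefSeq promoters, 5.54% belonged to a gene with a HOXB13-dependent promoter peak. Among the 1139 promoters with TGACAG in this window 13.1% did, and among the 21059 without it 5.13% did. TGATTGACA was in only 34 promoters, of which 10 belonged to such a gene, or 29.4%. These shares are descriptions, since a gene can have several promoters and related genes share promoter sequence.

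The joined PBX and MEIS word was rare and sat at the summits. TGATTGACA was in 24 of the 1070 HOXB13-dependent promoter peaks (2.24%), in 0.0935% of the upstream and in 0% of the downstream flanks (24 peaks at the summit only against 1 in the flank only, adjusted p = 5.68e-06, exact binomial test), and in 0.153% of all promoters. Retained promoter peaks held it in 3.01%, peaks outside promoters in 1.01%, and the 377 HOXB13ko-only promoter peaks in 0, which allows a share of up to 0.796%. The 24 peaks had fold enrichments from 4.30 to 11.1. The highest was at LCORL, a transcription cofactor gene, and others were at ZNF443 with 9.92, the stress response phosphatase regulator PPP1R15A with 9.82, ZNF44 with 9.16, ZNF823 with 8.83, RANGRF with 8.59 and ZNF556 with 7.89. Zinc finger genes supplied 5 of the 24.

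The HOXB13 core was not concentrated at the promoter summits. ATAAA was in 124 of the 1070 HOXB13-dependent promoter peaks (11.6%) and in 18.8% and 16.9% of the flanks, so it was rarer at the summit (96 peaks at the summit only against 153 in the flank only, adjusted p = 8.97e-04, exact binomial test). All promoters held it in 13.8%. This call was lost with a 25 bp window (-2.62 points, p = 0.230, exact binomial test), with flanks at 200 bp (-1.64 points, p = 0.450, exact binomial test) and with CAATAAA, and the direction turned at summits below 50% GC. The last setting selects summits, but not flanks, for low GC in the counted window, so it cannot settle the direction. Outside promoters 53.9% of HOXB13-dependent peaks had it at the summit and 37.0% in the flanks, the promoter peaks minus these giving -42.3 percentage points (odds ratio 0.112, 95% interval 0.0911 to 0.137, adjusted p = 3.70e-145, Fisher's exact test). The excess over the flanks also differed between these classes, -6.26 points at promoters against 16.9 points elsewhere (odds ratio 0.293, p = 1.34e-18, Fisher's exact test over peaks with the word on 1 side only). Retained promoter peaks held ATAAA in 8.27%, a difference from the members that did not pass the test (adjusted p = 0.388, Fisher's exact test). HOXB13ko-only promoter peaks held it in 3.18%, less often than the members (odds ratio 3.98, 95% interval 2.17 to 8.02, adjusted p = 5.34e-07, Fisher's exact test). Within strata of GC content, the members minus the HOXB13ko-only promoter peaks gave 3.45 percentage points (adjusted p = 0.0186, two-sided exact conditional test over strata).

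Words with a PBX or MEIS part beside a HOX part were also scarce at promoters, though some were commoner at the summits than in the flanks. TGATTTAT was in 20 promoter peaks (1.87%) against 0.327% of flanks (adjusted p = 0.00340, exact binomial test) and 0.180% of all promoters, and in 9.28% of HOXB13-dependent peaks outside promoters. The fold enrichments of its highest holders were 12.7 at UGT2B4, 9.38 at TGIF1, 9.18 at the epithelial transcription factor gene GRHL3 and 8.99 at PATL1. TGATTGAT, the word of PBX with an anterior HOX partner, was in 1.50% of promoter summits and 0.0467% of flanks (adjusted p = 7.55e-04, exact binomial test). It was in 0.122% of all promoters and in 2.24% of HOXB13-dependent peaks outside promoters. TGACA followed by TTTAT after 2 bases was in 1 promoter peak (0.0935%) and in 43 peaks outside promoters (1.28%; adjusted p = 2.81e-04, Fisher's exact test), and in 0.0135% of all promoters. The 1 promoter peak was at MIR8074, with a fold enrichment of 7.74. A form of the HOXB13 word with CpG, TCGTAAA, was in 0.748% of summits and 0.234% of flanks, which did not pass the test (adjusted p = 0.332, exact binomial test). The longer HOXB13 word CAATAAA was in 1.50% of summits and 1.87% of flanks (adjusted p = 1, exact binomial test), and in 0.946% of all promoters.

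**Figure D3:**
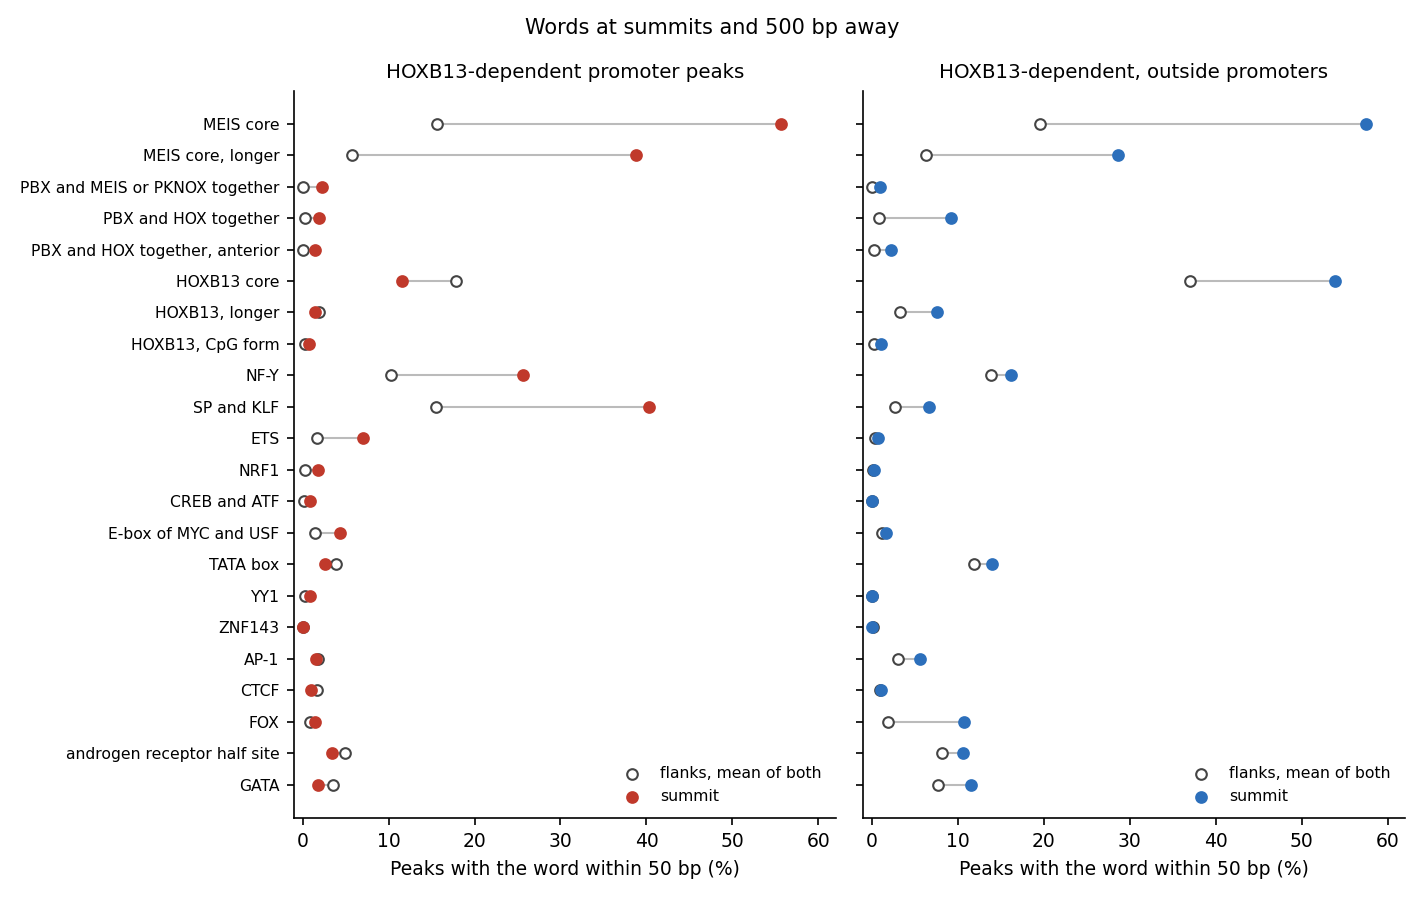
Share of peaks (%) that hold each of 22 named words within 50 bp of the summit (filled) and, as the mean of both sides, 500 bp away (open), for HOXB13-dependent promoter peaks (left) and HOXB13-dependent peaks outside promoters and repeats (right). At promoters the MEIS, NF-Y and SP words gain at the summit and the HOXB13 core is at 11.6% against 17.9% in the flanks, a call lost in a 25 bp window or with flanks at 200 bp; elsewhere the HOXB13 core gains from 37.0% to 53.9%.

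Base composition moved with the HOXB13 core. ATAAA holds no G or C, and the median GC content within 50 bp of the summit was 62.4% in the promoter peaks (55.2% in their flanks) and 39.6% in the other HOXB13-dependent peaks (40.1% in flanks). In 71 promoter peaks, or 6.64%, it was below 45%, and in 68.9% of the others. Within strata of GC content the classes were close. Where it was below 40%, ATAAA was in 80.5% of 41 promoter peaks and 74.8% of 1779 others. From 40% to 45% the shares were 43.3% and 52.8%, and from 60% to 65% they were 5.86% and 8.90%. In none of the 7 strata did Fisher's exact test give a p below 0.05 for this word, the smallest being 0.141. Over all strata the promoter peaks minus the others gave -2.98 percentage points, against -42.3 without strata (p = 0.0477, adjusted p = 0.0676, exact conditional test over strata, Benjamini-Hochberg over 14 comparisons). TGATTTAT gave -0.932 points (adjusted p = 0.345, the same exact test). For TGACA followed by TTTAT the call was lost within strata (-0.0761 points, p = 1, the same exact test). The strata were added after these values had been seen.

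**Figure D4:**
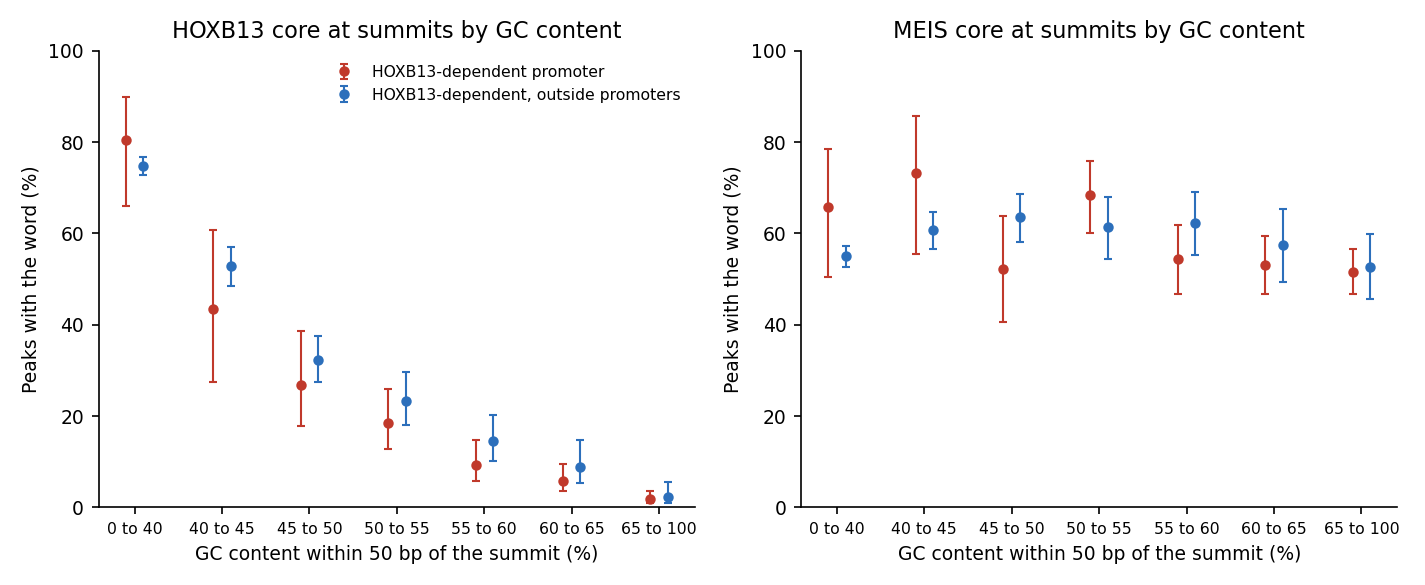
Share of peaks (%) with the HOXB13 core (left) and the MEIS core (right) within 50 bp of the summit, in 7 strata of GC content of the same window (%), for HOXB13-dependent promoter peaks (red) and HOXB13-dependent peaks outside promoters and repeats (blue), with 95% Wilson intervals. The HOXB13 core drops from 80.5% to 1.75% of promoter peaks with rising GC content, beside 74.8% to 2.17% of the others, while the MEIS core stays between 51.6% and 73.3% of promoter peaks.

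In the 138 promoter peaks with under 50% GC at the summit, ATAAA was in 46.4% of summits and 25.7% of flanks, the opposite order to all promoter peaks, and TGATTTAT in 7.97% against 0.362%. The median GC content of these was 44.6% at the summit and 50.0% in the flanks. These peaks were chosen for low GC in the same window in which the words were counted, while their flanks were not. That choice can by itself raise words rich in A and T at the summit, so this order is not read as a result. The word of FOX factors, TGTTTAC, did differ from the other HOXB13-dependent peaks within strata. It was in 1.40% of promoter summits, 10.7% of the others and 0.924% of all promoters, and within strata of GC content the promoter peaks minus the others gave -3.89 points (adjusted p = 1.55e-05, exact conditional test over strata).

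General promoter words were common at the promoter peaks. CCAAT was in 274 peaks (25.6%), 10.2% of flanks (adjusted p = 2.59e-16, exact binomial test) and 20.8% of all promoters. GGGCGG was in 40.3%, 15.5% of flanks (adjusted p = 1.43e-37, exact binomial test) and 38.9% of all promoters, so its level was near that of promoters at large. The ETS word CCGGAAG was in 7.01% of the peaks, less often than in the retained promoter peaks (12.8%, adjusted p = 0.0375, Fisher's exact test) and in the HOXB13ko-only promoter peaks (12.5%, adjusted p = 0.00309, Fisher's exact test), and in 5.43% of all promoters. CACGTG, the E-box of MYC and USF factors, was in 4.39% against 9.02% of HOXB13ko-only promoter peaks (adjusted p = 0.00304, Fisher's exact test) and 3.92% of all promoters. CCAAT was in 8.75% of the HOXB13ko-only promoter peaks (adjusted p = 1.16e-12, Fisher's exact test). Among members it was in 23.9% of those with TGACA and 27.8% of those without, a difference that did not pass the test (odds ratio 0.815, 95% interval 0.613 to 1.08, adjusted p = 0.317, Fisher's exact test). Of the 22 words, 10 were commoner and 1, ATAAA, rarer at the summits than in the flanks after adjustment.

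A scan of all 6-base words placed the MEIS core first without its being named. Of all such words, each counted with its reverse complement, 138 (6.63%) were commoner at the summits of the HOXB13-dependent promoter peaks than in both flanks at an adjusted p below 0.05, and 169 (8.12%) were rarer (exact binomial tests, Benjamini-Hochberg over all words). The smallest p belonged to TGACAG (38.8% against 5.61% and 5.79%, adjusted p = 2.97e-75, exact binomial test). Next came GGGCGG and its neighbours GGGGCG and GGCGGG, with 34.5% to 40.3% of summits and 34.7% to 38.9% of all promoters. CTGACA (22.0% of summits, 4.28% of all promoters), GACAGG (24.7%, 6.48%), GTGACA (20.8%, 4.84%) and GACAGC (23.6%, 6.25%) extend the core on either side. The remaining places among the first 10 went to TGATTG, which was in 16.2% of summits and 6.97% of all promoters, and to GATTGG, which was in 15.1% and 10.5% and overlaps the reverse complement of CCAAT. The rarer words were mostly rich in A and T: 131 of the 169 had at least 4 such bases, and the smallest p belonged to AAAAAT (2.62% of summits against 14.3% and 12.8%, adjusted p = 3.20e-17, exact binomial test).

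The HOXB13-dependent promoter peaks were less often rich in CpG than the other promoter peaks. A ratio of observed to expected CpG of at least 0.6 within 150 bp of the summit was found in 74.3%, against 88.7% of retained promoter peaks (odds ratio 0.368, 95% interval 0.196 to 0.645, adjusted p = 3.14e-04, Fisher's exact test) and 91.8% of HOXB13ko-only promoter peaks (odds ratio 0.259, 0.169 to 0.386, adjusted p = 1.16e-13, Fisher's exact test). Over all protein-coding promoters, read over 300 bp, the share was 62.2%, and in HOXB13-dependent peaks outside promoters 8.86%. A second protein-coding start site on the opposite strand lay within 1000 bp upstream for 15.9% of 953 promoter peaks (95% Wilson interval 13.8% to 18.4%), 16.5% of retained promoter peaks and 12.2% of all protein-coding genes.

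Homeobox genes had HOXB13-dependent promoter peaks in 10 of 50 HOX and TALE genes (20%), beside 923 of 20046 protein-coding genes in all (4.60%). Retained promoter peaks were at 1 of the 50 (2%, beside 0.509% of all protein-coding genes) and HOXB13ko-only promoter peaks at 0 (beside 1.48%). With so few, the higher share is not shown to be particular to the HOXB13-dependent peaks. The median fold enrichment over the 10 genes was 5.51, against 5.96 over all protein-coding genes with such a peak. TALE genes stood highest. TGIF1, which encodes a repressor of TGF-beta and retinoid signals, had 2 promoter peaks, with fold enrichments of 9.38 and 5.80. PKNOX2 had 7.84, with TGACAG at a summit 120 bp inside the gene. MEIS1 itself had 7.35, with a summit 65 bp downstream of the start site, in a UTR exon, and held TGATTGACA. Both lines carried a lentiviral MEIS1, which the input lacked if it was untreated as labelled, and a HOXB13ko-LV-MEIS1 peak lay 836 bp from the MEIS1 peak. PBX3 had 3.96, with a HOXB13ko-LV-MEIS1 peak 107 bp away.

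Among HOX genes the peaks were at HOXB9 (fold enrichment 5.61), HOXB6 (5.41), HOXC13 (5.21), HOXB13 (4.61) and HOXA4 (2.65). The peak at HOXB13, the gene edited in the knockout line, lay at -429 bp from its start site, on chromosome 17 from 48729017 to 48729360, with a q-value of 4.47e-10, and held both TGACAG and ATAAA. HOXB9 held both words as well. Over the 11 promoter peaks of these 10 genes, 7 had TGACA and 4 had ATAAA at the summit.

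Zinc finger genes of the ZNF series had HOXB13-dependent promoter peaks in 73 of 566 (12.9%, beside 4.60% of all protein-coding genes). Retained promoter peaks were at 12 of the 566 (2.12%, beside 0.509% of all protein-coding genes) and HOXB13ko-only promoter peaks at 12 (2.12%, beside 1.48%), so the higher share is not shown to be particular to the HOXB13-dependent peaks. The median fold enrichment of the HOXB13-dependent promoter peaks over these genes was 7.89. Many of these genes are recent tandem copies that encode KRAB repressors of transposable elements, and 48 of the 73 lie on chromosome 19, where 18.4% of 261 ZNF genes had a peak, against 8.20% of 305 elsewhere. Chromosome 7 held another 9, or 23.1% of its 39. The 3 with the highest fold enrichment were ZNF736 (14.8), ZNF563 (12.9) and ZNF92 (12.7), followed by ZNF726 with 12.7.

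The zinc finger promoters held the MEIS core most of the time. Of their 75 peaks, 86.7% had TGACA, against 53.3% of the other 995 HOXB13-dependent promoter peaks (odds ratio 5.70, 95% interval 2.87 to 12.6, adjusted p = 1.14e-08, Fisher's exact test, Benjamini-Hochberg over 5 words). TGACAG was in 77.3% against 35.9% (adjusted p = 1.26e-11, Fisher's exact test) and CCAAT in 56.0% against 23.3% (adjusted p = 1.39e-08, Fisher's exact test). ATAAA was in 6.67% against 12%, which did not pass the test (adjusted p = 0.194, Fisher's exact test). In 542 RefSeq promoters of ZNF genes without such a peak, TGACAG was in 9.59% and CCAAT in 25.1%. These were read within 50 bp of a point 72 bp upstream of the start site and not around summits. They are therefore not directly comparable with the shares of the peaks. Over all 622 ZNF promoters read in this way, the shares were 12.7% and 31.0%. Tandem copies share promoter sequence and are not independent units, so these p-values are too small, and reads of 50 bp from near-identical copies may not be placed uniquely. This comparison was chosen after the values had been seen. Without the zinc finger list the share of members with TGACA was 53.3%.

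Genes of the UGT2B family, enzymes that attach glucuronic acid to steroids and among them androgens, had HOXB13-dependent promoter peaks in 6 of 7, beside 4.60% of all protein-coding genes, with 9 peaks, another family chosen after its values had been seen. Fold enrichments on chromosome 4 were 12.9 at UGT2B28, 12.7 at UGT2B4, 9.47 at UGT2B15, 9.25 at UGT2B7, 6.48 and 5.05 at peaks assigned to UGT2B10 and 6.46 at UGT2B11. They were 9.13 and 5.37 at copies of UGT2B15 and UGT2B10 on an alternate contig. The peak of 6.48 lay from 69020412 to 69020719, outside the span of UGT2B10 (68815994 to 68832023), so its assignment to that gene is not certain. No HOXB13ko-LV-MEIS1 peak was annotated to any of these genes. Their summits were rich in A and T, with GC content of at most 33.7%, and 8 of the 9 held ATAAA while 6 held TGACA. Of all HOXB13-dependent promoter peaks below 40% GC, 80.5% held ATAAA, so its share here is near that of other summits of this composition. The near-identical copies limit how surely reads were assigned to 1 of them.

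Lists tied to the setting of the study had few members. Of 63 proteoglycan genes 2 had a HOXB13-dependent promoter peak (3.17%): CHPF2, a chondroitin synthesis gene, with a fold enrichment of 11 and TGACAG at its summit, and CHPF, of the same function, with 2.58. Of 46 genes of androgen signaling and the prostate 5 had one (10.9%). These were the luminal keratin KRT8 (7.60), ZBTB10 (6.73), the kallikrein KLK2 (4.84), HOXB13 and CREB3L4 (3.21), which encodes a cAMP responsive element binding protein. The HOXB13ko-LV-MEIS1 peak nearest to that at CREB3L4 was 629 bp away. In TGF-beta and BMP signaling 2 of 51 had one (3.92%), the inhibitory SMAD6 with 5.41 and the receptor TGFBR2 with 3.98. In the cell cycle 5 of 92 did (5.43%): the kinases CDK4 (6.83) and CDK6 (6.63), the kinase inhibitors CDKN1B (5.92) and CDKN2C (4.31), and the pocket protein RBL2 (5.41). Of these, CDK6, RBL2 and CDKN2C had TGACA at the summit. These shares lie near the 4.60% of all protein-coding genes except for the androgen and prostate list, where they rest on 5 genes.

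Housekeeping lists varied. The translation factor list, which also held regulators of such factors (EIF2AK3, EIF4EBP3 and EEF1AKMT1), had a HOXB13-dependent promoter peak in 9 of 71 (12.7%). EIF4B (10.4), the kinase gene EIF2AK3 (8.62) and EIF3D (8.54) were highest. The respiratory chain had one in 11 of 94 (11.7%), with ATP5F1B (9.08), COX6A1 (8.33) and NDUFA9 (7.09). Cytosolic ribosomal protein genes followed with 7 of 86 (8.14%), among them RPS27 (10.4) and RPL24 (7.69). The RAB GTPase list, which also held the regulator RAB3GAP2, had 7 of 75 (9.33%), where RAB39A (9.23), RAB5B (8.08) and RAB3A (7.69) led. Proteasome genes had 4 of 50 (8%) and autophagy genes, with ATG2A, ATG9A and ATG7, 3 of 31 (9.68%). Splicing genes had 5 of 76 (6.58%), with HNRNPLL (10.9) highest, and mitochondrial ribosomal protein genes 4 of 78 (5.13%), with MRPS18A (9.48) highest. Ubiquitin genes had 9 of 186 (4.84%), DNA repair genes 3 of 68 (4.41%), and RNA polymerase II machinery 4 of 98 (4.08%) with GTF2A2 (10.5) highest. HOXB13ko-only promoter peaks were at 4.26% of respiratory chain, 5.81% of cytosolic ribosomal protein and 6.45% of autophagy genes, beside 1.48% of all protein-coding genes. Retained promoter peaks were at 4.23% of the translation factor list, beside 0.509%. The higher shares of these lists are not shown to be particular to the HOXB13-dependent peaks. Neither class had a peak in the RAB list. At shares of 0.509% and 1.48% of all protein-coding genes, few or none would be seen among 75 genes, so nothing is read from this.

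Other lists had shares below the background of 4.60%. They were solute carriers (17 of 374, 4.55%), chromatin regulators (4 of 117, 3.42%), histones (3 of 93, 3.23%) and RNA helicases (1 of 54, 1.85%, DHX36). No kinesin gene of 39 and no olfactory receptor gene of 416 had such a peak, which allows shares of up to 7.69% and 0.721%. Retained and HOXB13ko-only promoter peaks were at 0 genes of these last 2 lists as well. HOXB13ko-only promoter peaks were at 6.45% of histone, 5.56% of RNA helicase, 3.42% of chromatin regulator and 0.535% of solute carrier genes, beside 1.48% of all protein-coding genes. The olfactory receptor genes are silent in most tissues, but promoter activity was not tested here.

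**Figure D5:**
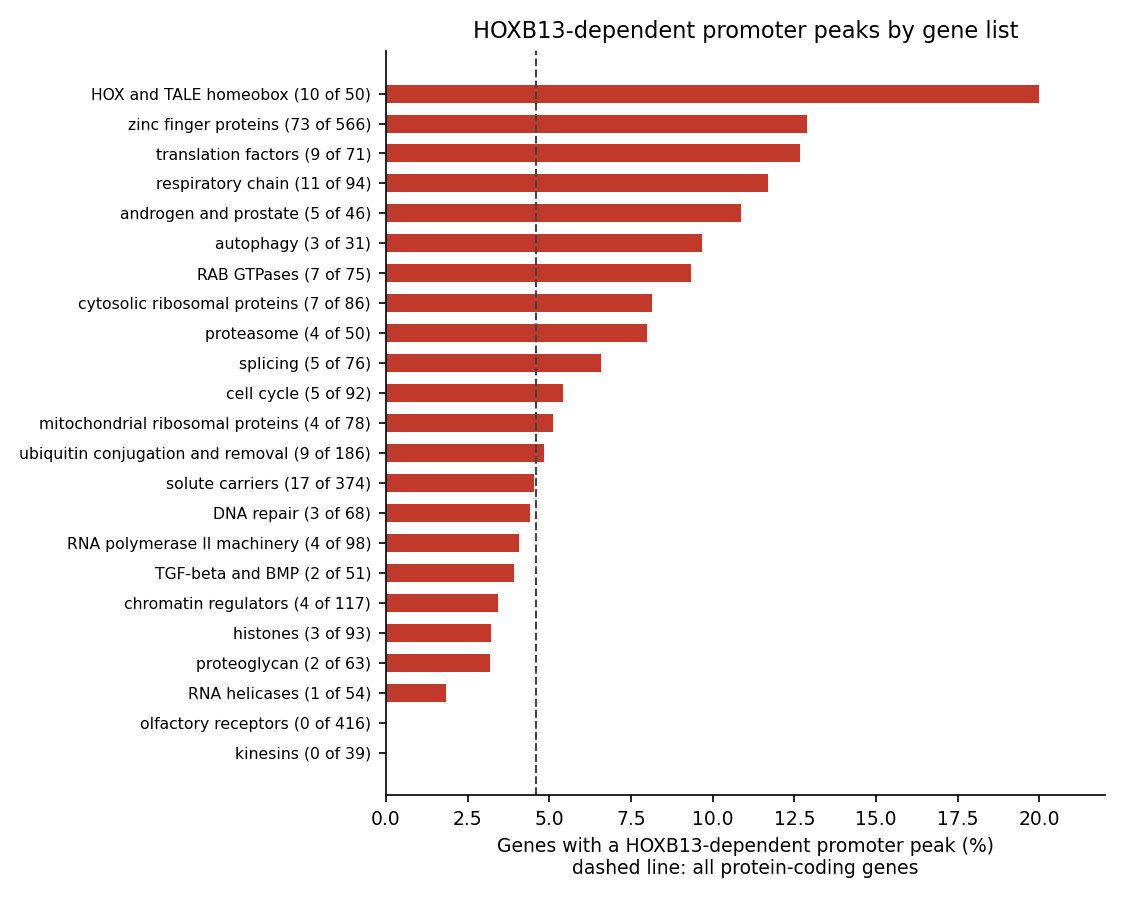
Share of the genes of each list named above (%) with a HOXB13-dependent promoter peak, with the number of genes in brackets; the dashed line marks 4.60%, the share over all 20046 protein-coding genes. HOX and TALE homeobox genes are at 20% and zinc finger genes at 12.9%, and the proteoglycan and TGF-beta lists lie below the line.

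Few genes had several HOXB13-dependent promoter peaks. LENG9 had 4, the most of any gene, with fold enrichments of 7.89 to 10.3, but 3 of these lay on alternate contigs of the same region of chromosome 19, so they repeat 1 promoter. CBWD5 had 3 on chromosome 9, at copies of that gene, with 6.69 to 7.34. At BAZ2A the peaks lay at separate positions, at -586 bp (9.88, with CCAAT) and 14 bp (7.94, with TGACAG) from the start site HOMER used. Alternate contigs and copies therefore account for most of the highest counts per gene named here.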

How the data were processed

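MEIS1 ChIP-seq peaks and their annotation were taken as deposited, 1 list per line. The authors trimmed reads (Trimmomatic 0.38), removed duplicates (Picard 2.18.10), aligned to hg38 (Bowtie2), pooled the immunoprecipitations of a line and called peaks against 1 input (MACS2 2.1.2, q-value 0.01, extension to 200 bp). The deposited signal is the pileup at the summit after the authors' scaling to the input, the fold enrichment is the ratio of pileup to local background, and the authors give p- and q-values as −log10. HOMER 4.9.1 gave the other deposited values, distance to the start site and gene.

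Here words were searched in hg38 around summits. Start sites implied by HOMER lay within 100 bp of a GENCODE 44 start site of the same gene for 90.1% of 1026 peaks. Promoter sequences were those of RefSeq. Words at summits were tested with exact binomial tests, shares with Fisher's exact tests or, within GC strata, an exact conditional test, over peaks. Intervals of 95% cover counting error only. Members, words and gene lists were chosen with earlier results of these data known. Named genes were the 10 highest and 5 lowest by fold enrichment, holders of TGATTGACA or of TGACA before TTTAT, the leading genes of each list, genes with several peaks, and peaks at the overlap limit. JARID2, GRHL3, PATL1, ZNF726, HOXC13, PBX3 and UGT2B genes other than UGT2B28, UGT2B10 and UGT2B15 are named beyond that rule, a choice made once their values were known. The scripts were tested on simulated data. Python 3.11.15, numpy 2.4.6, scipy 1.17.1, pandas 2.3.3 and pysam 0.24.0 were used. Some genes covered by that rule are not reported here.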

Additional observations from a re-analysis of the deposited data

How the results depend on the processing

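Of 153 values recomputed under 17 alternatives, 137 kept their direction and their side of the threshold or stayed near the main value. The alternative that kept repeats could not change results on LV-MEIS1 promoter peaks alone, since 0 of these lay in repeats. Its identical values there are counted among the 137 and are no support. The count of HOXB13-dependent promoter peaks ranged from 836 to 1101, and the excess of TGACA over the flanks from 32.7 to 43.2 percentage points. The share of LV-MEIS1 promoter peaks with no overlap was 90.9% with −log10 q of at least 5, 92.9% with a fold enrichment of at least 5 and 91.5% when at least 50% of both peaks had to overlap. The difference in TGACA from retained promoter peaks, not called in any of these settings, was -5.45 points with the fold enrichment minimum and -0.793 with a 25 bp window. Against HOXB13-dependent peaks outside promoters it was -5.76 points with a 100 bp window, 10.1 with the word TGACAG and -4.35 without zinc finger genes, all 3 past the threshold that the reported value misses. For ATAAA at promoter summits against the flanks it was -2.62 with a 25 bp window, -1.64 with flanks at 200 bp, -0.374 with CAATAAA, none of which passed the test, and 20.7 below 50% GC. That last value comes from summits chosen for low GC in the counted window, with flanks not so chosen, and cannot settle the direction. The joined TGACA and TTTAT word differed by -0.0761 points within strata of GC content, where the call was lost. The number of 6-base words commoner at the summit was 70 and 253 with windows of 25 and 100 bp and 73 with flanks at 200 bp. The cause of these changes was not tested. GC strata, summits below 50% GC, chromosomes 1 to 22, X and Y, and the removal of zinc finger genes were chosen after seeing the data. The CpG column of HOMER could give no value, because no promoter row holds it.

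The immunoprecipitations were pooled, so no replicate was left out in turn and there is no error between cultures. No paired analysis was possible because each line has 1 pooled list. The pool without HOXB13 was smaller, which limits what its missing peaks can show.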
